A study of Mus musculus with 8 samples.

Results

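The genes of the ISG15 conjugation pathway were followed in mouse leukemia cells driven by the fusion oncogene MLL-AF9. The gene names were chosen from general knowledge of the pathway, with earlier results of these data known. They were Isg15, Uba7, Ube2l6, Herc6, Usp18, Isg20, Rtp4 and Cmpk2. Of these 8 genes, 7 were measured here, out of 12823 genes in the table, and Isg15 itself was not analysed here. ISG15 is a small ubiquitin-like protein that cells make in response to type I interferon and attach to other proteins, in the same 3 kinds of step as ubiquitin. UBA7 is the activating enzyme (E1), UBE2L6 the conjugating enzyme (E2) and HERC6 the main ligase (E3) in mice, while USP18 takes ISG15 off again and, apart from that activity, dampens signalling at the interferon receptor. Isg20, Rtp4 and Cmpk2 are not conjugation enzymes and were included as genes that interferon induces together with them. In blood cells these genes are a common readout of how strongly a cell is receiving an interferon signal.

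RNA was sequenced from GFP+ leukemia cells sorted from bone marrow, with 4 libraries of newly generated leukemia (new AML) and 4 of serially transplanted leukemia (aggressive AML). In both groups mouse bone marrow progenitor cells had been transduced with MLL-AF9 and GFP on the same construct, and the first recipients had been sublethally irradiated. New AML cells were collected from the leukemia that followed, and aggressive AML cells were raised from the remaining GFP+ cells through 5 serial transplantations, in mice that were not irradiated. Cells of both groups were then grown in C57BL/6 mice, which the study describes as young adult males. The libraries are labelled as biological replicates, but it is not stated whether the aggressive cells trace to more than 1 starting leukemia, so p-values measure the spread between these libraries.

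Library totals lay between 7805544 and 9697777 counts, so that 1 count was worth 0.103 to 0.128 CPM (counts scaled to the library total, with edgeR's TMM factors in the values below). All 8 genes listed for myeloid leukemia, Hoxa9, Kit and Mpo among them, were measured in both groups, but 5 of them differed. Over all tested genes 18.4% differed in either direction, by the edgeR test described below (adjusted p under 0.05). Csf1r and Itgam, of mature myeloid cells, fell by 1.70 and 0.61 on the log2 scale, and Kit, Elane and Meis1 rose by 0.65, 0.52 and 0.45. The 4 Y-linked genes Ddx3y, Eif2s3y, Kdm5d and Uty summed to between 250.9 and 286.9 CPM in the new AML libraries. These genes had 0 counts in every aggressive AML library, although the study describes the aggressive cells as raised from the new ones. This difference runs exactly along the groups, and its part in the results below cannot be told apart from that of serial transplantation.

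Interferon acts on such genes through short DNA elements near their start sites, and the 130 bases before the start are shown for the 3 genes in which a search found the core letters of such an element. They come from the RefSeq promoter table for GRCm38.p6, which had 8 start sites for 6 of the 8 genes. The sequences run 5′ to 3′ on the gene's strand and end at the base before the RefSeq start. For Uba7 that start lies inside the GENCODE gene span given below, so part of its window, with the capitals, does too. Capitals mark the letters AANNGAAA, the core bound by interferon regulatory factors, on either strand.
Isg15 (chr4:156200819-156200948, minus strand): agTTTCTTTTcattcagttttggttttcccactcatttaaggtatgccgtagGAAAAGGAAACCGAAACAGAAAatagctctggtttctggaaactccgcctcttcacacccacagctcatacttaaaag
Uba7 (chr9:107975437-107975566, plus strand): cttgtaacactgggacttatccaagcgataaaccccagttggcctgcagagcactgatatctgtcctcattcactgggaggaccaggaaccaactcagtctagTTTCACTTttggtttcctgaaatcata
Isg20 (chr7:78913294-78913423, plus strand): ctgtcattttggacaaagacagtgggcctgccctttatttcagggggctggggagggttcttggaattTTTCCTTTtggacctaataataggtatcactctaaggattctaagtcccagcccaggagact
In the whole 250 bases before each start, AANNGAAA was present in 21.3% of 32851 promoters on either strand, so a single match as in Uba7 and Isg20 is common. The longer core of the interferon-stimulated response element, GAAA repeated on the same strand after a gap of 2 bases, was present in 2.98% of them and contains the shorter one. Isg15 held 3 overlapping matches of the longer form, which together make up its second run of capitals, and the other genes with a start site in the table held none. None of these letters was in the windows of Ube2l6, Herc6 or Cmpk2.

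Of the 7 measured genes, 5 fell in aggressive AML and 0 rose, against 10.2% of all 12494 tested genes that were called lower and 8.15% that were called higher (18.4% in either direction). The genes that fell were Usp18, Rtp4, Ube2l6, Cmpk2 and Uba7, by between 1.31-fold and 6.51-fold. Herc6 and Isg20 did not pass the test. The fitted change was below 0 for 7 of 7, with a median log2 fold change of -0.59 beside 0.00 over all tested genes. A call means an adjusted p under 0.05 in edgeR's quasi-likelihood test, with Benjamini-Hochberg adjustment over all tested genes. A negative log2 fold change means a lower level in aggressive AML. In 4 of the 7 every aggressive AML library lay below every new AML library, which held for 12.0% of tested genes (21.8% were apart in either direction). In bulk RNA, fewer cells of a type and less RNA per cell cannot be told apart.

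**Figure D1:**
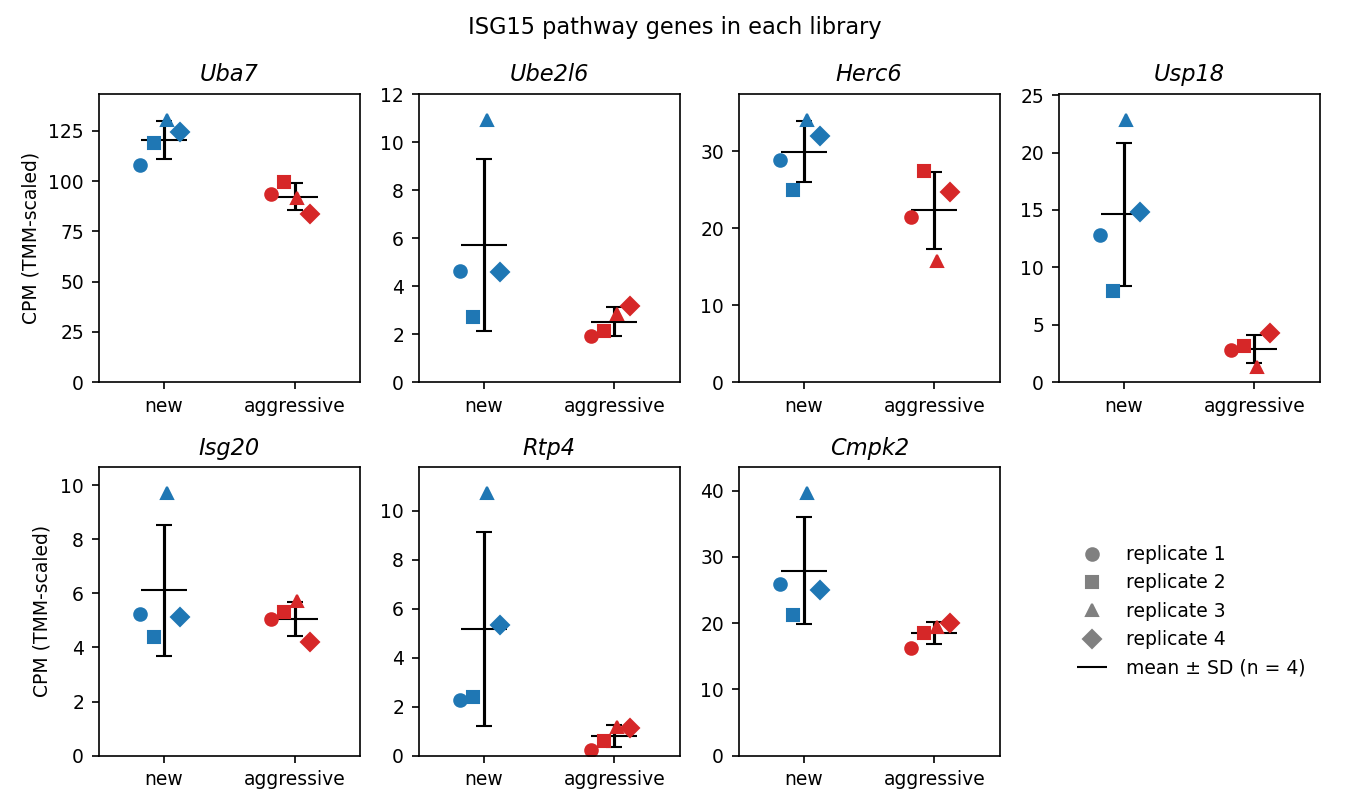
CPM (vertical axes, each from 0) of the 7 measured genes in the 4 new AML and the 4 aggressive AML libraries, 1 panel per gene, with points for libraries and bars for mean and SD. New AML replicate 3 is the highest new AML library in all 7 panels, and the groups do not overlap for Uba7, Usp18, Rtp4 and Cmpk2.

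The enzyme that starts the chain had the smallest fitted change of the genes that fell. Uba7 (chr9:107975505-107984060, plus strand, GRCm38) measured 107.9, 118.9, 130.5 and 124.5 CPM in new AML replicates 1 to 4 and 93.7, 99.8, 91.7 and 83.7 CPM in aggressive AML replicates 1 to 4. Every aggressive AML library was below every new AML library, but the ranges were close. The mean went from 120.4 ± 9.62 to 92.2 ± 6.62 CPM (SD, n = 4 each), a log2 fold change of -0.38 (SE 0.08, 95% CI -0.56 to -0.20, edgeR adjusted p = 0.00539). It was also the most steadily measured of the 7, with counts between 708 and 1170 per library. Gm20661, an annotated gene on the same strand, shares 233 exon bases with Uba7, so reads there are uncertain.

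Ube2l6 (chr2:84798828-84810335, plus strand) encodes the enzyme that carries activated ISG15 to the ligase. It measured 4.62, 2.73, 10.9 and 4.57 CPM in new AML and 1.93, 2.1, 2.85 and 3.19 CPM in aggressive AML. The groups overlapped, because new AML replicate 2 lay below aggressive AML replicates 3 and 4, and new AML replicate 3 stood far above the other 3. The log2 fold change was -1.18 (SE 0.38, 95% CI -1.98 to -0.38, edgeR adjusted p = 0.0404). This call rested on few counts, 23 to 98 per new AML library and 16 to 28 per aggressive AML library, and it held in 2 of the 8 fits that left out 1 library. Its log2 fold change was -0.66 when new AML replicate 3 was left out (edgeR adjusted p = 0.155).

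Herc6 (chr6:57581000-57664632, plus strand), the ligase gene, measured 28.8, 25.0, 34.1 and 32.0 CPM in new AML and 21.4, 27.4, 15.8 and 24.7 CPM in aggressive AML. Aggressive AML replicate 2 lay above new AML replicate 2, and the other aggressive libraries lay below all of new AML. The log2 fold change of -0.42 was close in size to that of Uba7, but with an SE of 0.16 and a 95% CI of -0.75 to -0.09 it did not pass the test (edgeR adjusted p = 0.0719). Without aggressive AML replicate 2 it was -0.53 and passed (edgeR adjusted p = 0.0415), and in the other 7 fits that left out 1 library it did not. Gm45193, annotated on the same strand, shares 1269 exon bases with Herc6, so part of its count is uncertain.

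Usp18, which reverses the reaction, had a larger fitted change than any of the 3 conjugation enzymes. Usp18 (chr6:121245906-121270917, plus strand) measured 12.8, 7.97, 22.9 and 14.8 CPM in new AML and 2.77, 3.18, 1.30 and 4.32 CPM in aggressive AML. The lowest new AML library was above the highest aggressive AML library, with 67 to 205 counts in the one group and 10 to 38 in the other. The mean of 14.6 ± 6.20 CPM in new AML and 2.89 ± 1.25 CPM in aggressive AML gave a log2 fold change of -2.32 (SE 0.33, 95% CI -3.03 to -1.61, edgeR adjusted p = 0.000208). This is 4.99-fold lower, and 0.640% of tested genes had a more negative fold change. The antisense gene Gm44148 shares 124 exon bases with Usp18, and whether the counting used strand is not given in the sources used here.

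Among the genes induced together with the enzymes, Rtp4 fell and Isg20 did not pass the test. Rtp4 (chr16:23520291-23614222, plus strand) encodes a transporter protein that helps some receptors reach the cell surface, and it measured 2.26, 2.38, 10.7 and 5.35 CPM in new AML against 0.241, 0.589, 1.17 and 1.14 CPM in aggressive AML. The groups did not overlap, and new AML replicates 1 and 2 were much lower than replicates 3 and 4. The log2 fold change was -2.70 (SE 0.55, 95% CI -3.88 to -1.53, edgeR adjusted p = 0.00329), or 6.51-fold lower, and 0.416% of tested genes had a more negative value. The aggressive AML values rest on 2, 5, 9 and 10 counts, so the level there is known only roughly. The annotated Rtp4 span overlaps Masp1 on the other strand and shares 296 exon bases with Gm45338.

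Cmpk2 (chr12:26469204-26479837, plus strand), a mitochondrial kinase that makes nucleoside diphosphates, measured 25.9, 21.2, 39.6 and 25.0 CPM in new AML and 16.3, 18.5, 19.4 and 20.0 CPM in aggressive AML. The groups did not overlap, by a narrow margin between new AML replicate 2 and aggressive AML replicate 4. The log2 fold change was -0.59 (SE 0.17, 95% CI -0.95 to -0.23, edgeR adjusted p = 0.0247). The call held in 5 of the 8 fits that left out 1 library, and was lost without new AML replicate 3 (-0.37, edgeR adjusted p = 0.0678), without aggressive AML replicate 1 (adjusted p = 0.0742) and without aggressive AML replicate 2 (adjusted p = 0.0565).

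Isg20 (chr7:78913424-78920396, plus strand), an exonuclease that degrades single-stranded RNA, measured 5.23, 4.40, 9.70 and 5.13 CPM in new AML and 5.06, 5.30, 5.70 and 4.21 CPM in aggressive AML. Apart from new AML replicate 3 the 2 groups covered nearly the same range. The log2 fold change was -0.27 (SE 0.26, 95% CI -0.83 to 0.28, edgeR adjusted p = 0.498). That interval reaches from a fall larger than the fitted change of Cmpk2 to a small rise. Without new AML replicate 3 the sign turned, to 0.04 (edgeR adjusted p = 0.929).

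New AML replicate 3 was the highest new AML library for 7 of 7 genes, which was the case for 28.2% of tested genes, and new AML replicate 2 was the lowest for 5 of 7, against 18.7% of tested genes. Its excess over the mean of the other 3 new AML libraries was 3.22-fold for Rtp4, 2.75-fold for Ube2l6, 1.97-fold for Isg20, 1.93-fold for Usp18 and 1.65-fold for Cmpk2, but only 1.19-fold for Herc6 and 1.11-fold for Uba7. No aggressive AML library had a like place, since the highest was replicate 4 for 3 genes, replicate 2 for 2 and replicate 3 for 2. Without new AML replicate 3, 3 of the 7 genes were called lower, and these were Uba7 (-0.35, edgeR adjusted p = 0.0151), Usp18 (-2.02, edgeR adjusted p = 0.000654) and Rtp4 (-2.07, edgeR adjusted p = 0.00906). The count was also 3 without aggressive AML replicate 1. Over all genes 2278 were called in either direction without new AML replicate 3 and 1771 without aggressive AML replicate 1, beside 2296 with all libraries. Each of Uba7, Usp18 and Rtp4 was called in all 8 fits that left out 1 library.

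**Figure D2:**
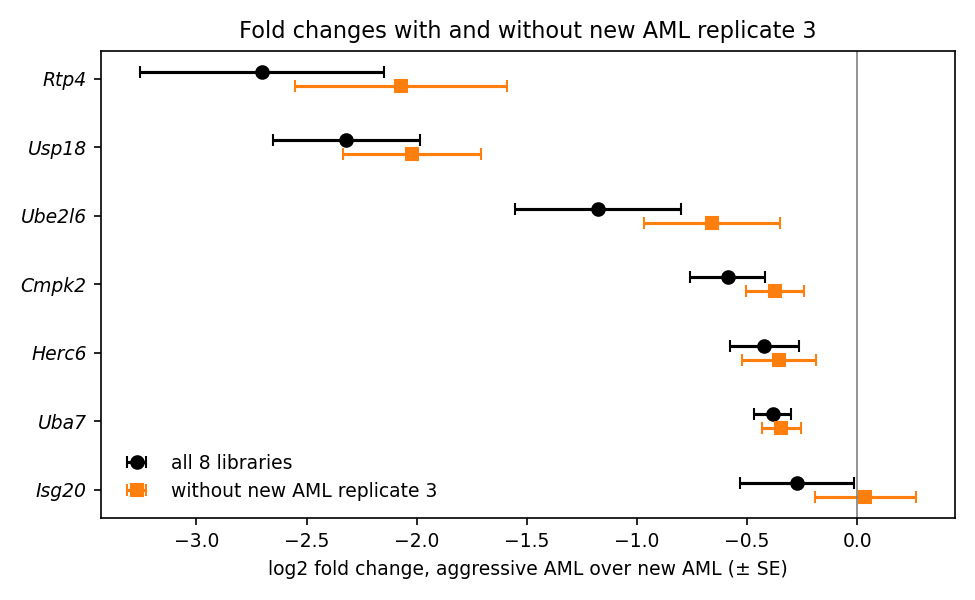
Log2 fold change of aggressive AML over new AML (horizontal axis) for the 7 genes, from all 8 libraries (black circles) and without new AML replicate 3 (orange squares), with bars for 1 SE. Rtp4 and Usp18 stay below -2 without that library, while Isg20 moves from -0.27 to 0.04 and Ube2l6 from -1.18 to -0.66.

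Whether the genes changed by unequal amounts was tested with the log2 ratio of 2 genes within a library, which does not depend on library size. Of the 21 pairs, 10 had ratios that did not overlap between groups, beside 23.1% of all pairs of tested genes. Those 10 were the pairs of Usp18 or Rtp4 with each of Uba7, Ube2l6, Herc6, Isg20 and Cmpk2. The log2 ratio of Uba7 to Usp18 went from 3.14 ± 0.57 in new AML to 5.12 ± 0.77 in aggressive AML (SD, n = 4 each), a difference of 1.98. For Herc6 to Usp18, the ligase and the remover, the difference was 1.92. Each of the 10 had p = 0.0286 in a two-sided exact permutation test, the smallest p that 4 libraries against 4 allow. After adjustment over the 21 pairs it was 0.06, so 0 pairs passed. With that smallest p no pair could pass on its own, however far apart its groups lay, so the result does not show equal change. Among the conjugation enzymes the log2 ratio differed by 0.06 for Uba7 to Herc6 (exact permutation p = 0.771), 0.64 for Uba7 to Ube2l6 (exact permutation p = 0.171) and -0.58 for Ube2l6 to Herc6 (exact permutation p = 0.257). The ratio of Usp18 to Rtp4 differed by 0.30 (exact permutation p = 0.686). The pairs share genes and are not independent of each other.

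**Figure D3:**
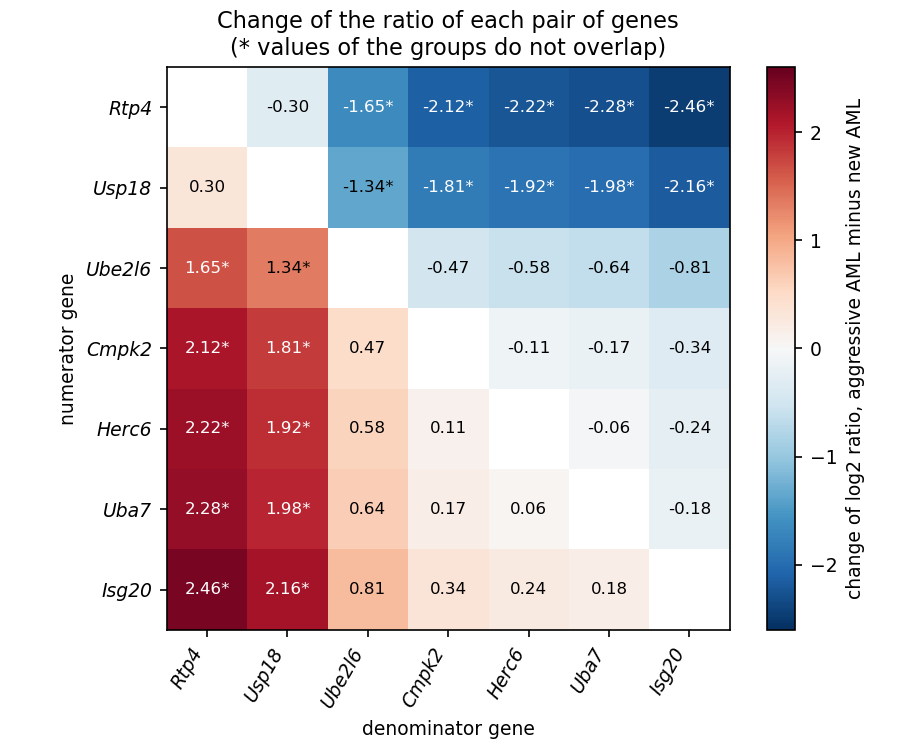
Change of the log2 ratio between genes (aggressive AML minus new AML, color scale) for the 21 pairs of the 7 genes, with marks on the 10 pairs whose groups do not overlap. All 10 marked pairs set Usp18 or Rtp4 against one of the other 5 genes.

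Levels between genes were compared per length, as CPM per kilobase of annotated exons. In new AML the order of the group means was Uba7 at 18.0, Cmpk2 at 6.70, Usp18 at 5.24, Isg20 at 3.29, Herc6 at 3.23, Ube2l6 at 2.86 and Rtp4 at 2.43 CPM per kilobase. Of neighbours in that order, only Uba7 and Cmpk2 had ranges that did not overlap. In aggressive AML the order was Uba7 at 13.8, Cmpk2 at 4.46, Isg20 at 2.72, Herc6 at 2.40, Ube2l6 at 1.26, Usp18 at 1.04 and Rtp4 at 0.368 CPM per kilobase. Here Uba7 and Cmpk2, Cmpk2 and Isg20, and Herc6 and Ube2l6 had separate ranges, and the other neighbours overlapped. Usp18 thus went from 3rd to 6th place, and with the longest transcript as the length it went from 3rd to 5th.

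**Figure D4:**
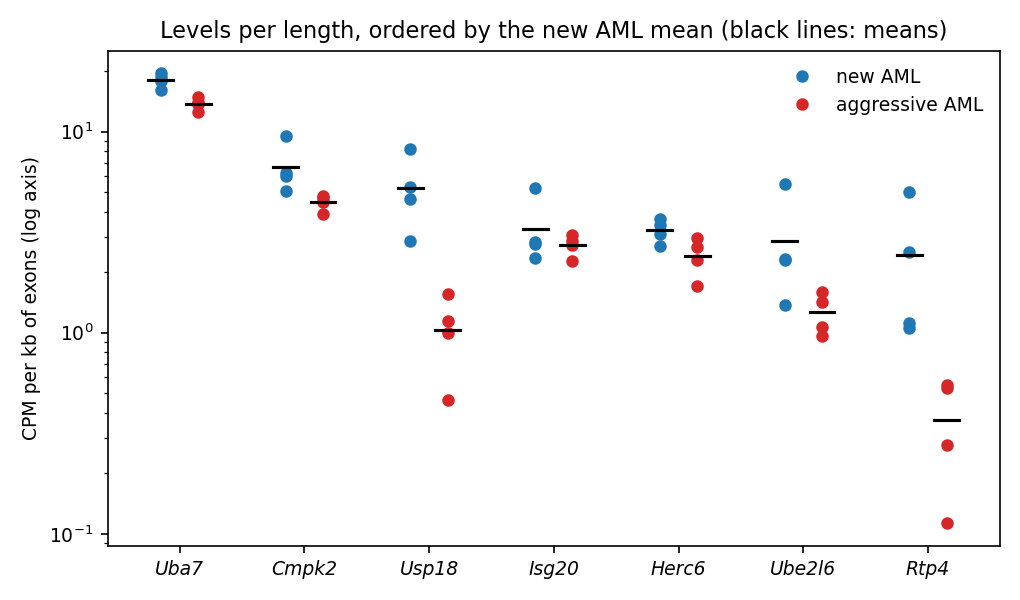
Level per length (CPM per kilobase of exons, log axis) of the 7 genes in new AML (blue) and aggressive AML (red), with points for libraries and black lines for means. By group mean Uba7 is highest and Rtp4 lowest in both groups, and Usp18 drops from 5.24 to 1.04. In new AML the Rtp4 points overlap those of Ube2l6.

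The genes that surround the conjugation system were listed in the same way, from general knowledge and with earlier results known. Of 11 tested genes that act beside the members, 7 fell, 0 rose and 4 did not pass the test. Over all tested genes 10.2% were called lower. The 11 were a further ISG15 ligase, receptors and binding partners, sensors and known targets, with a median log2 fold change of -0.39. Trim25, a ligase that can attach ISG15 and that also acts on the RNA sensor RIG-I, fell from 139.5 ± 8.38 to 103.5 ± 9.93 CPM (log2 fold change -0.43, edgeR adjusted p = 0.00255). Ddx58, which encodes RIG-I, was at 9.54, 9.39, 20.9 and 15.7 CPM in new AML and 7.59, 5.89, 6.87 and 6.14 CPM in aggressive AML. Its groups did not overlap, and its log2 fold change was -1.07 (edgeR adjusted p = 0.00723). Eif2ak2, the double-stranded RNA kinase PKR, changed by -0.51, and Itgal, a subunit of the LFA-1 integrin that binds free ISG15, by -0.39, both called. Arih1, Ube2e1, Itgb2 and Irf3 did not pass.

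The chain that carries the interferon signal to these genes was lower along most of its length. Of 6 tested genes from receptor to transcription factor, 5 fell and 0 rose, against 10.2% of all tested genes called lower. The median log2 fold change of the 6 was -0.41. Irf9, the DNA-binding part of the complex that carries the signal into the nucleus, measured 95.6, 94.9, 115.8 and 103.9 CPM in new AML and 49.0, 49.8, 44.2 and 56.8 CPM in aggressive AML. The groups were far apart, and the log2 fold change was -1.04 (SE 0.10). Stat2, the partner through which USP18 reaches the receptor, changed from 66.1 ± 5.48 to 46.0 ± 6.91 CPM (log2 fold change -0.52, SE 0.11). The receptor chains Ifnar1 and Ifnar2 changed by -0.38 and -0.43 and the kinase Tyk2 by -0.27, all called, while the kinase Jak1, at -0.17, did not pass (edgeR adjusted p = 0.132). Stat2 and Ifnar2 are in both this list and the one before, and their falls count in each. Of the 15 different genes in these lists together 10 fell, and 8 were called lower without new AML replicate 3.

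In other ubiquitin-like systems calls went both ways, at a share near that of all genes. Of 32 tested genes (E1 and E2 enzymes of other systems, ubiquitin and other modifiers, and HERC ligases), 2 fell and 3 rose (15.6% called, against 18.4% of all tested genes), with a median log2 fold change of 0.05 and a range of -0.40 to 0.51. Ube2l3, the closest relative of Ube2l6, was at 131.2 ± 13.5 CPM in new AML and 131.8 ± 4.13 CPM in aggressive AML (log2 fold change 0.01, 95% CI -0.17 to 0.18). Uba1, the main ubiquitin-activating enzyme, had a log2 fold change of -0.07 (95% CI -0.24 to 0.11). The called genes were Uba6 and Herc2, which fell by 0.40 and 0.37 on the log2 scale, and Uba2, Sumo3 and Herc3, which rose by 0.27, 0.25 and 0.51. Of 4 tested relatives of Isg20 and Cmpk2, Dtymk, another nucleotide kinase, rose by 0.22, and Cmpk1, Aen and Isg20l2 did not pass the test.

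**Figure D5:**
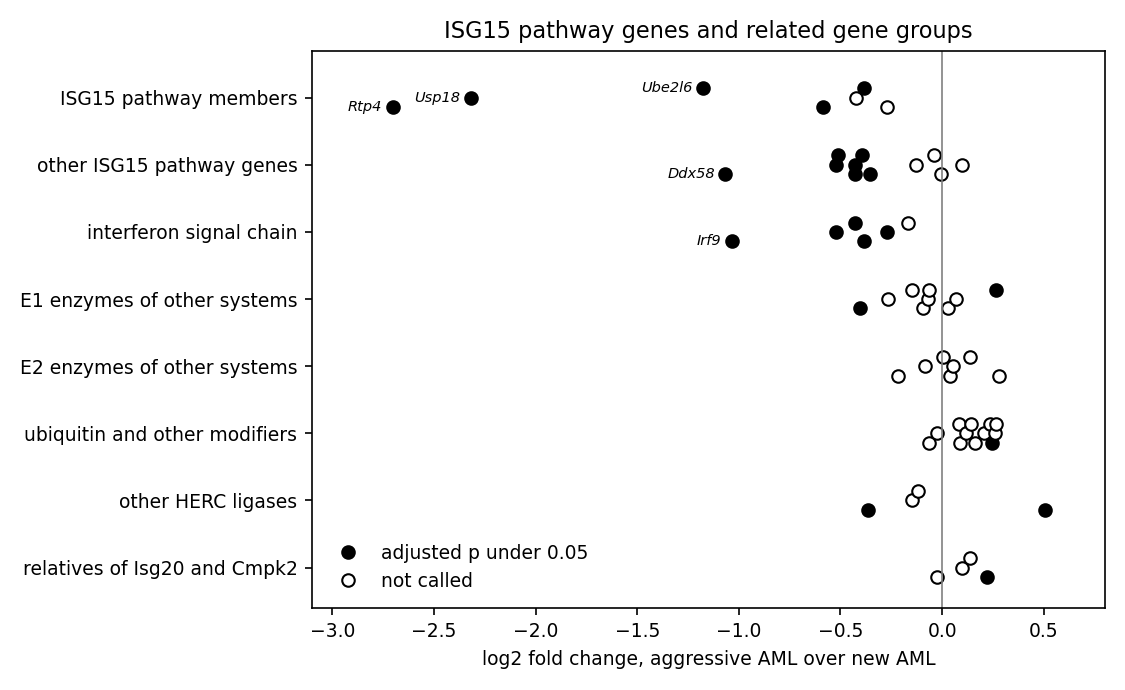
Log2 fold change of aggressive AML over new AML (horizontal axis) for the 7 genes and for 7 lists of related genes, with filled points for genes called at an adjusted p under 0.05 and open points for the others. Members and interferon signalling genes lie below 0 or near it, and the genes of other ubiquitin-like systems lie between -0.40 and 0.51.

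Genes listed as markers of other bone marrow cells also differed between the groups, and their part in the results above was not tested. Whether these transcripts came from other cells or from the leukemia cells themselves was not tested either. For plasmacytoid dendritic cells, which are strong interferon producers, 3 of 6 markers were tested and 1 fell, Siglech, from 5.58 to 0.448 CPM, and the summed level ranged from 8.80 to 14.4 CPM in new AML and from 2.65 to 9.07 CPM in aggressive AML. Macrophage markers fell in 2 of 4 tested (67.1 to 117.1 against 38.8 to 58.4 CPM in sum). Neutrophil markers fell in 6 of 8 (226.8 to 331.1 against 114.0 to 161.9 CPM in sum). Over all tested genes 10.2% were called lower. Adgre1 made up most of the macrophage sum, at means of 83.1 CPM in new AML and 46.9 CPM in aggressive AML. Of the 2 neutrophil markers not called, Cxcr2 changed by -0.61 and Ly6g by 0.31 on the log2 scale. New AML replicate 3, highest for all 7 pathway genes, was the lowest new AML library for the macrophage sum, at 67.1 CPM, and within the range of the other 3 for plasmacytoid dendritic cell and neutrophil sums, at 10.1 and 299.1 CPM. It was the highest for the erythroid sum, at 76.6 CPM, in a list with 1 of 5 tested genes called lower and sums of 20.8 to 76.6 CPM in new AML and 9.19 to 38.9 CPM in aggressive AML. Lymphoid markers were less often measured, with 1 of 7 tested for T cells, 1 of 6 for B cells and 2 of 6 for NK cells, and 1 of these 4, in the NK list, was called, as higher. New AML replicate 3 was also the highest for the B cell sum, at 42.2 CPM against at most 37.9 CPM in the other new AML libraries. It was within their range for the T cell and NK cell sums.

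The genes outside the 7 whose levels followed them most closely were ranked by Pearson r with the mean of the 7 standardised log2(CPM + 1) values. Over the 8 libraries the first 10 were Oasl2 (r = 0.99), Gm17757, Irgm1, Oas1g, Zbp1, Parp9, Dck, Fnta, Irf7 and Gm18853, the last at 0.97. These points share the difference between groups and the high values of new AML replicate 3. With the mean of each group removed the first 5 were Irf7 (r = 0.99), Oasl2, Ifi27l2a, Irgm1 and Gm17757 (r = 0.97). Irf7, a transcription factor of the interferon response, changed from 26.3 to 7.28 CPM, and Oasl2, an oligoadenylate synthetase-like protein, from 22.5 to 6.76 CPM. Among the 7 genes, Ube2l6 and Cmpk2 followed each other most closely after removal of group means (r = 0.99). Uba7 followed the mean of all 7, itself included, least (r = 0.55). Removal of group means leaves the high values of new AML replicate 3 in place. Within new AML alone r between members ran from 0.55 (Uba7 and Usp18) to 0.996 (Ube2l6 and Cmpk2). Within aggressive AML alone it ran from -0.86 (Usp18 and Isg20) to 0.96 (Rtp4 and Cmpk2). These correlations are descriptions over 8 libraries.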

How the data were processed

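Per the study's methods, poly(A) RNA was sequenced in paired ends, and the authors aligned reads to mm10 with HISAT2, counted them per gene with Rsubread and filtered out genes with low CPM. The annotation and strand setting are not given in the sources used here. The deposited values were named CPM but are whole-number counts with a different total in each library (7805544 to 9697777), and they were analysed as counts. A filter on low values can leave out genes that are weak in every library.

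The 12494 genes that reached 1 CPM in 4 or more libraries (329 did not) were fitted with edgeR 4.0.16 (TMM scaling, quasi-likelihood test, two-sided) in R 4.3.3, and p-values were adjusted over all of them. CPM values are counts scaled to a library's TMM-adjusted total. Alternatives used DESeq2 1.42.0, limma 3.58.1 on log2(CPM + 1), no filter and each library left out. The edgeR step was tested on simulated data. Ratio tests were exact permutation tests over 70 splits (scipy 1.17.1), planned for all pairs of 8 genes and run on the 21 pairs of the 7 measured. Exon lengths and positions came from GENCODE M21 (GRCm38). No 2 libraries of a group agreed within sampling noise.

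The genes and lists were chosen with earlier results of these data known. Named genes were the 8 members, the listed genes, and the 10 and 5 most like them by correlation. Intervals cover 95% and come from the edgeR fit, so they take in the spread between libraries as well as counting error. A gene of the interferon signalling list is not reported here.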

Additional observations from a re-analysis of the deposited data

Results flagged for a closer look

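Among the 7 pathway genes and the 51 other tested pathway genes, cell markers left out, 8 of 116 groups had a single library that stood apart from the other 3 by Dixon's test, which flags about 1 in 20 groups by chance. Isg20 was at 9.70 CPM in new AML replicate 3, above 4.40 to 5.23 CPM in the other new AML libraries. Irf3, a transcription factor that can induce interferon-stimulated genes directly, was at 75.0 CPM in aggressive AML replicate 3, below 103.2 to 108.9 CPM in the others. Tyk2, the kinase bound to the interferon receptor, was at 88.8 CPM in the same library, below 106.8 to 110.3 CPM in the others. Among genes of other ubiquitin-like systems, the activating enzymes Mocs3 and Atg7 stood apart in aggressive AML replicate 3, at 17.6 CPM (lowest) and 65.6 CPM (highest). Nae1 and Fau were highest in aggressive AML replicate 2, at 32.6 and 28.3 CPM, and Atg12 was lowest in new AML replicate 1, at 93.2 CPM. For the pathway genes, aggressive AML replicate 3 was the lowest aggressive library for Usp18 and Herc6, and was the highest for Isg20 and Rtp4.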

How the results depend on the processing

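Of 98 alternative fold changes of the 7 genes, 85 kept their direction and their side of the threshold, 11 lost the call, 1 gained it and 1 turned sign. Uba7, Usp18 and Rtp4 were called under all 14 alternatives, Cmpk2 under 11, Ube2l6 under 6, Herc6 under 1 and Isg20 under 0. Leaving out 1 library at a time gave log2 fold changes of -1.40 to -0.66 for Ube2l6, -0.70 to -0.37 for Cmpk2, -0.53 to -0.29 for Herc6 and -0.40 to 0.04 for Isg20. The sign of Isg20 turned without new AML replicate 3 (0.0369). The call of Ube2l6 was also lost with limma on log2(CPM + 1) (-0.81, adjusted p = 0.0600) and with array weights (-0.61, adjusted p = 0.0995), and the cause was not tested. The number of the 7 genes called ranged from 3 to 5 when 1 library was left out. Over all genes it ranged from 1466, without new AML replicate 2, to 2324, beside 2296 with all libraries, and over the other pathway genes from 9, without new AML replicate 2, to 17, beside 16, with 10 without new AML replicate 4. Levels per kilobase depended on the length used, and for Uba7 in new AML the mean was 33.3 CPM per kilobase with the longest transcript.

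Replicate numbers are shared between groups, but deviations of same-numbered libraries correlated at only 0.0967, -0.0399, -0.0654 and 0.204, so the numbers were not taken to pair the libraries. With a replicate block 2367 genes and 5 of the 7 were called. Depth limited Rtp4 and Ube2l6 most, with 2 to 28 counts per aggressive AML library.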

Other observations

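Genes next to the pathway genes on the chromosome were also measured. Within 100 kb of the 7 genes, 22 other genes were tested, of which 2 fell and 0 rose. The 2 make up 9.09%, near the 10.2% of all tested genes called lower. Ip6k1, a kinase of inositol phosphates near Uba7, had a log2 fold change of -0.43 (edgeR adjusted p = 0.00392), and Pex26, a peroxisome assembly gene near Usp18, one of -0.57 (edgeR adjusted p = 0.00508). Aen, an exonuclease gene 2215 bases from Isg20, had a log2 fold change of 0.10 (edgeR adjusted p = 0.464). Rsad2, which encodes the antiviral protein viperin and lies 12752 bases from Cmpk2, was at a mean of 3.52 CPM in new AML and 2.33 CPM in aggressive AML and did not pass the test (log2 fold change -0.61, SE 0.41, edgeR adjusted p = 0.323).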
